A study of Mus musculus with 55 samples.

Results

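Fos, Fosb, Fosl1, Fosl2, Jun, Junb, Jund, Atf3, Egr1 and Ier2 are the AP-1 and immediate early transcription factors described here, 10 genes of the 24478 gene symbols measured in sorted mouse liver cells. They were chosen by symbol, and each symbol was represented by its transcript row of highest mean level across the 55 libraries. A single row was listed for 9 of the symbols, and Jund had rows for its transcripts at a single locus. In the sort for Kupffer cells, the resident macrophages of the liver, the 9 tested genes were lower after partial hepatectomy (PH, the removal of part of the liver). In the blood cell sort 8 of 10 were higher. Of these, Fosb and Fosl1 were under 1 FPKM in normal blood and were tested there only through their PH libraries. Of all genes tested, 20.1% were lower in the Kupffer cell sort and 24.3% higher in the blood cell sort. In the other 8 populations at most 2 passed the test. The share of all genes that passed there ran from 0.00747% in Thy1 cells to 15.2% in non-progenitor ducts, so these counts are not comparable between populations.

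AP-1 is a dimer of basic leucine zipper (bZIP) proteins, in which a Jun protein pairs with another Jun protein, a Fos protein or a member of the ATF family. The dimer binds the AP-1 site or the related cyclic AMP response element (CRE) and controls genes of proliferation, matrix remodelling and inflammation. Fos, Jun, Egr1, Ier2 and several of their relatives are immediate early genes, transcribed within minutes of a growth factor, cytokine or stress signal without new protein synthesis, and in the liver they are known for their induction at the start of regeneration. Transcripts of this class are also known to respond to the dissociation of a tissue, and the labels give neither a dissociation time nor a time after surgery.

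The data were transcript levels in FPKM, fragment counts scaled to transcript length and library size, so that genes of different length can be compared. Cells of C57B/L6 mice were separated by fluorescence-activated cell sorting into TRIzol. The 10 populations were clonal biliary epithelial cells (cBEC), biliary epithelial cells (BEC), non-progenitor ducts (NPD), hepatocytes (HC), endothelial cells (EC), liver sinusoidal endothelial cells (LSEC), Kupffer cells (KC), blood cells, Thy1 cells and hepatic stellate cells (HSC), each from normal liver and from liver after PH. There were 4 normal libraries for HC, BEC and cBEC, 3 for LSEC and 2 for every other population. The PH libraries numbered 5 for LSEC, 4 for HC, 3 for KC, EC and HSC, and 2 for the remaining 5 populations. The normal animals are not described as sham operated. The first PH cBEC library is titled PH but carries the treatment tag normal, and was kept as titled. Nothing in the labels says whether the libraries of a group came from separate animals, so p-values measure the spread between libraries, which may be technical. In such bulk samples, fewer cells of a type and less RNA per cell cannot be told apart.

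Promoter sequences were taken from RefSeq in build GRCm38.p6, whose coordinates are not those of the deposited table, and 7 of the 10 genes had one. The 120 bases before the transcription start are shown for the 5 most abundant of these genes, Fos (chr12:85473770-85473889, plus strand), Fosb (chr7:19310046-19310165, minus strand), Junb (chr8:84978749-84978868, minus strand), Atf3 (chr1:191183334-191183453, minus strand) and Jun (chr4:95052223-95052342, minus strand). They are printed 5′ to 3′ on the gene's strand, and capitals mark TGACG, the core of the CRE, on either strand and the TATA box TATAAA.
Fos: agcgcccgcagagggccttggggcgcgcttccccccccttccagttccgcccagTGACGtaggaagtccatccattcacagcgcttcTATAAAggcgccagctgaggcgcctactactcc
Fosb: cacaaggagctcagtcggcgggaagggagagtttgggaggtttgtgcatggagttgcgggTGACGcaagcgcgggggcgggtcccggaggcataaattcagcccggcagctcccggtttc
Junb: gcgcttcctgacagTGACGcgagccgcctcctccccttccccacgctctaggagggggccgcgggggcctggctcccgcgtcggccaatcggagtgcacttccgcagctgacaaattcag
Atf3: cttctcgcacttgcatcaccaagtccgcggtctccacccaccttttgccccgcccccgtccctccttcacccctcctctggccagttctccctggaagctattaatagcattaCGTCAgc
Jun: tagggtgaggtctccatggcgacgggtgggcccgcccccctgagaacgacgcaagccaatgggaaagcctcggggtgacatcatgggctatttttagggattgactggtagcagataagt
Within 250 bases before the start, on both strands, TGACG stood in 4 of the 7 promoters and in 17.8% of all 32851 promoters of the same table and length. In Fos it began at positions -129 and -66 from the start, in Fosb at -60, in Junb at -106 and, on the opposite strand, in Atf3 at -7. The whole CRE TGACGTCA, which contains TGACG, was in 0 of 7 and in 1.55% of all promoters. The AP-1 site TGANTCA was in 0 of 7 and in 6.75% of all, and the CArG box of the serum response element was in 0 of 7 and in 1.47% of all. The GC box GGGCGG was in 5 of 7 (Fos, Fosb, Fosl2, Jun and Atf3) and in 32.7% of all, and TATAAA was in Fos alone among the 7, at -33, and in 12.4% of all. A match describes letters in this window and is not a measured binding site. Nor does a 0 show that a site is absent, since sequence further upstream and variants of these letters were not searched.

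Coordinates in the deposited table itself follow mm9, per the submitters' processing notes. In that build Fos lies at chr12:86814850-86818219 on the plus strand, Fosb at chr7:19888044-19895394 on the minus strand, Fosl1 at chr19:5447697-5455938 on the plus strand and Fosl2 at chr5:32438844-32460212 on the plus strand. Jun lies at chr4:94715726-94718913, Junb at chr8:87500807-87502647 and Atf3 at chr1:192994175-193007212, each on the minus strand. Jund lies at chr8:73221637-73224515 on the plus strand, Egr1 at chr18:35020860-35024610 on the plus strand and Ier2 at chr8:87185229-87186751 on the minus strand. Each interval spans the whole transcript, introns and untranslated regions included.

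Across the series, libraries summed to between 624726 and 1203197 FPKM over all 36141 transcript rows. Libraries of a group correlated with r between 0.919 and 0.996 on log2(FPKM + 1). The read depth is unknown, so no counting error can be given. The hepatocyte marker list (8 genes, among them Alb and Apoa1) summed to 74132 to 104498 FPKM in HC, whereas all 8 were listed at 0 in every library of normal BEC, normal NPD, normal blood and both KC groups. Each comparison below used limma on log2(FPKM + 1), two-sided, with Benjamini-Hochberg adjustment over all genes tested. A change on this scale is the difference of log2 values, PH minus normal, and it understates the fold of low genes. A gene is said to have risen or fallen only where its adjusted p was under 0.05.

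In normal liver the duct-derived populations and the Thy1 cells had the highest levels of these genes, and hepatocytes, blood cells and stellate cells the lowest. The cBEC sort was among the 3 highest populations for 10 of 10 genes, Thy1 for 8, and BEC and NPD for 6 each. The lowest population was HC for 4 genes, blood for 4 and HSC for 2. Shares of FPKM here and below are of the sum over the chosen row of each of the 24478 symbols. That sum is smaller than the library sum over all rows given above. Together the 10 transcripts made up 1.85% ± 0.276 of this sum in BEC (SD, n = 4), 1.74% ± 0.509 in cBEC (n = 4), 1.38% ± 0.221 in Thy1 (n = 2) and 1.16% ± 0.232 in NPD (n = 2). They made up 0.574% ± 0.335 in EC (n = 2), 0.563% ± 0.0888 in KC (n = 2) and 0.373% ± 0.147 in LSEC (n = 3). The shares were 0.0863% ± 0.0245 in blood (n = 2), 0.0777% ± 0.0229 in HSC (n = 2) and 0.0703% ± 0.0277 in HC (n = 4). Levels differed between the populations for 10 of 10 genes in normal liver and for 10 of 10 after PH by limma's moderated F test. That test called 93.0% of all genes in normal liver and 88.3% after PH, so a call was the common outcome.

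**Figure D1:**
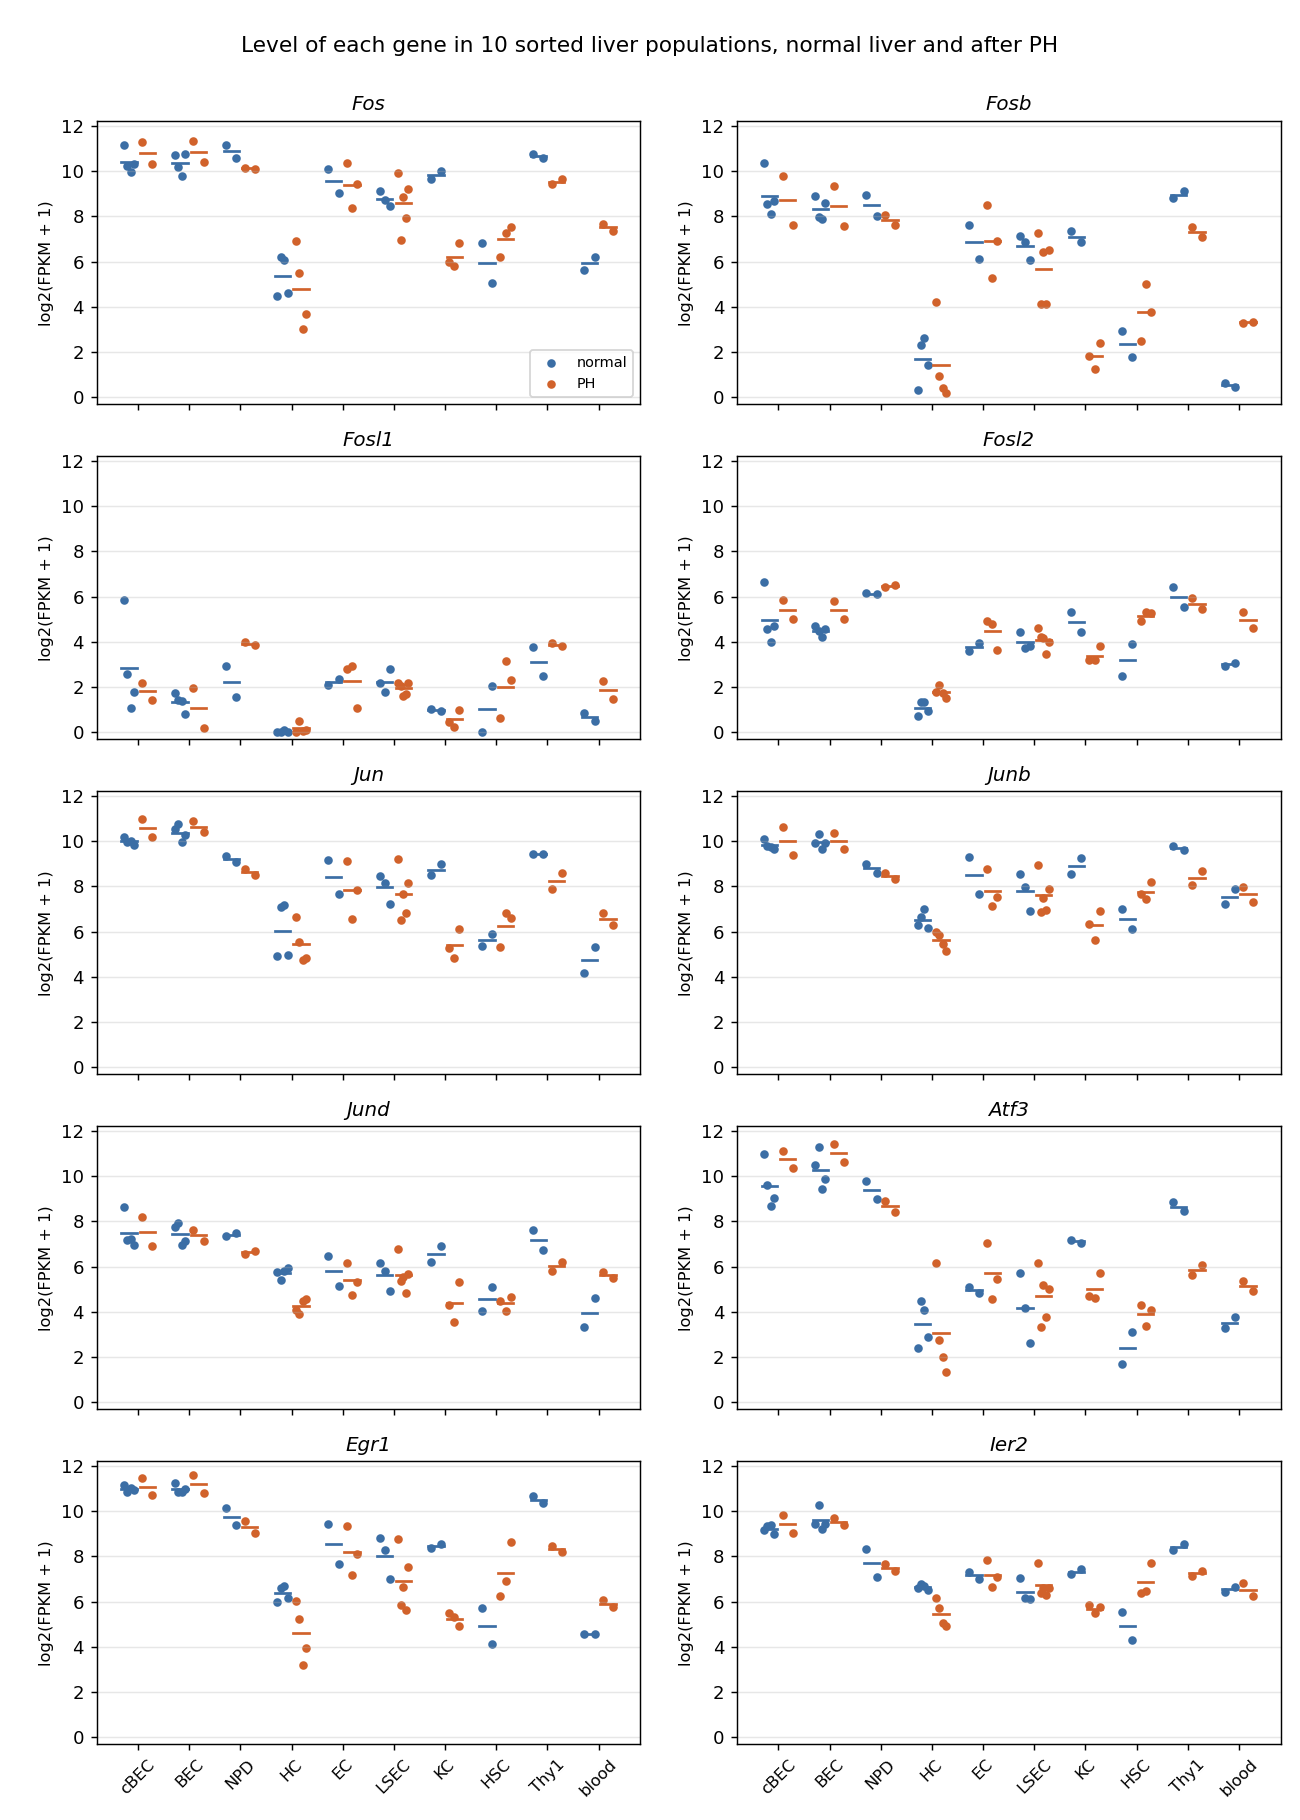
Level of each gene, as log2(FPKM + 1), in 10 sorted populations (horizontal axis) in normal liver and after PH; points are libraries and bars are group means. For Fos, the 2 normal KC libraries (793 and 1018 FPKM) stand above the 3 PH libraries (54.9 to 114 FPKM), and the 2 normal blood libraries (48.7 and 72.7 FPKM) below the 2 PH libraries (163 and 203 FPKM).

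Fos, the inducible Fos family member that gives the family its name, was the most abundant of the 10 on average. In normal liver it stood at 2307 and 1520 FPKM in the NPD libraries, 1712 and 1510 in Thy1, and 2293, 1189, 1004 and 1279 in cBEC. In BEC it was 1699, 1171, 876 and 1724 FPKM. These 4 sorts overlapped one another. The KC libraries had 793 and 1018 FPKM of Fos, EC 1088 and 526, and LSEC 554, 423 and 349. Lower still were HSC with 112 and 31.9, blood with 48.7 and 72.7, and HC with 21.3, 73.4, 67.0 and 23.6 FPKM. The only neighbours in this order whose libraries did not overlap were LSEC and HSC, so the 3 low sorts lay apart from the other 7. The highest group mean, in NPD, was 41.3-fold the lowest, in HC.

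Fosb, a Fos relative that also carries a strong activation domain, was also highest in the duct and Thy1 sorts and lowest in HSC, HC and blood, with a wider range. Its top sort was cBEC and its lowest blood, where those of Fos were NPD and HC. Its mean in normal liver was 591 ± 482 FPKM in cBEC (SD, n = 4) and 496 ± 74.7 in Thy1 (n = 2), against 4.56 ± 3.03 in HSC (n = 2), 2.78 ± 2.24 in HC (n = 4) and 0.462 ± 0.131 in blood (n = 2). In cBEC, library 1 had 1308 FPKM of Fosb and the others 271 to 411. Fosl2 (Fra-2), a family member that lacks that activation domain, was highest in NPD at 68.5 ± 1.53 FPKM (n = 2) and in Thy1 at 65.1 ± 26.8 (n = 2), and lowest in HC at 1.16 ± 0.435 (n = 4). Fosl1 (Fra-1) was the scarcest of the 10, with a mean of 4.28 FPKM over all libraries, and was listed at 0 in 5 libraries. Its highest mean in normal liver, 16.4 ± 27.2 FPKM in cBEC (n = 4), rested on library 1 with 57.1 FPKM, since the others had 1.13 to 5.03.

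Of the Jun family, whose members can also pair with one another, Jun and Junb were about equally abundant in most sorts and Jund was lower. Normal BEC had 1353 ± 303 FPKM of Jun and 1005 ± 193 of Junb (SD, n = 4), and normal cBEC had 1021 ± 107 and 910 ± 131 (n = 4). Jun was lowest in blood at 27.9 ± 15.3 FPKM (n = 2), whereas Junb in blood stood at 190 ± 59.0 and was lowest in HC at 92.6 ± 24.9 (n = 4). Junb had the narrowest range of the 10 across normal populations, a 10.9-fold difference between its highest and lowest mean. Jund, usually described as the constitutive member of the family, ranged 12.6-fold, from 202 ± 127 FPKM in cBEC (n = 4) to 16.0 ± 9.95 in blood (n = 2), and all neighbours in its order overlapped.

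Atf3, a stress-induced bZIP factor that pairs with Jun proteins, was concentrated in the duct populations. Normal BEC had 1397 ± 812 FPKM (SD, n = 4), cBEC 929 ± 734 (n = 4), NPD 698 ± 274 (n = 2) and Thy1 404 ± 76.0 (n = 2). The KC libraries had 142 and 132 FPKM of Atf3, all lower sorts were at or under 50.9, and HSC were lowest at 2.26 and 7.59. Egr1, a zinc-finger factor induced through the same kinase pathways as Fos, was even within the biliary sorts, with 1836 to 2261 FPKM in the 4 cBEC libraries and 1820 to 2405 in the 4 BEC libraries. Egr1 was lowest in blood, at 22.5 and 22.7 FPKM. Ier2, a small immediate early nuclear protein outside both families, had 805 ± 293 FPKM in BEC (n = 4) and 602 ± 78.8 in cBEC (n = 4), and 31.9 ± 18.7 in HSC (n = 2).

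After PH the order differed at both ends. NPD was among the 3 highest populations for 10 genes (6 in normal liver) and Thy1 for 2 (8 in normal liver). BEC were highest for 5 genes, cBEC for 3 and NPD for 2, and HC were lowest for 7, KC for 2 and HSC for 1. The median rank of KC over the 10 genes, where rank 1 is the highest population, was 5 in normal liver and 9 after PH. For blood it was 9 and 7, for HSC 9 and 7, and for Thy1 3 and 4.5. Between 7 and 9 of the 9 neighbouring pairs overlapped for each gene after PH except Atf3, with 6.

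In the KC sort 9 of 9 tested genes fell after PH, where 20.1% of the 11835 genes tested fell. Fosl1, at or under 1.04 FPKM in all 5 libraries, did not pass the filter on low values. The libraries of the 2 groups did not overlap for any of the 9, which was the case, lower after PH, for 34.7% of all genes. The median change of the 9 was -2.61 on the log2 scale, against -0.04 over all genes. As a share of the FPKM of the chosen rows, the 10 transcripts went from 0.500% and 0.626% in the normal libraries to between 0.0463% and 0.0892% after PH.

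Among the Fos family in KC, Fosb had the largest change. It stood at 164 and 115 FPKM in normal KC and at 2.54, 1.42 and 4.32 after PH, a change of -5.27 (SE 0.36, limma adjusted p 0.00139). Both normal libraries were far above every PH library. Fos went from 793 and 1018 FPKM to 61.5, 54.9 and 114, a change of -3.61 (SE 0.34, limma adjusted p 0.00187). The highest PH library for Fos, the third, was also the highest for Fosb. Fosl2 had 39.0 and 20.4 FPKM in normal KC and 8.07, 8.14 and 13.1 after PH (-1.47, SE 0.34, limma adjusted p 0.023). Its groups lay closest together of the 9.

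All 3 Jun genes fell in KC. Jun had 364 and 500 FPKM in normal KC and 38.2, 27.3 and 68.1 after PH (-3.33, SE 0.39, limma adjusted p 0.00318). Junb had 371 and 602 FPKM against 79.1, 47.7 and 119 (-2.61, SE 0.42, limma adjusted p 0.00763). Jund had 73.5 and 119 FPKM against 19.0, 10.7 and 38.8 (-2.17, SE 0.53, limma adjusted p 0.0278). For each of the 3, normal library 2 was the higher of its pair, PH library 3 the highest of its group and PH library 2 the lowest.

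Atf3, Egr1 and Ier2 fell as well. Egr1 had 335 and 367 FPKM in normal KC and 44.5, 38.8 and 29.3 after PH (-3.21, SE 0.20, limma adjusted p 0.00133). Atf3 had 142 and 132 FPKM against 24.7, 23.5 and 51.7 (-2.11, SE 0.36, limma adjusted p 0.00903). Ier2 had 146 and 174 FPKM against 56.4, 44.2 and 52.5 (-1.63, SE 0.16, limma adjusted p 0.00196). The spread within the 2 groups was small beside the gap between them for Egr1 and Ier2. When each KC library was left out in turn, between 6 and 9 of the 9 remained past the threshold, and Fos, Fosb, Jun, Egr1 and Ier2 did so each time. Fosl2 missed it without normal library 1, PH library 1 or PH library 2, Jund without normal library 1 or 2 or PH library 1, Atf3 without either normal library and Junb without normal library 2, with adjusted p between 0.0605 and 0.174. The third PH library, which lacks the cell type tag of the others, can be left out with 9 of 9 still called. That fit called 58% of all genes, however. Without PH library 1 the count was 7, where 19.3% of all genes were called, and without PH library 2 it was 8, where 22.6% were.

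**Figure D2:**
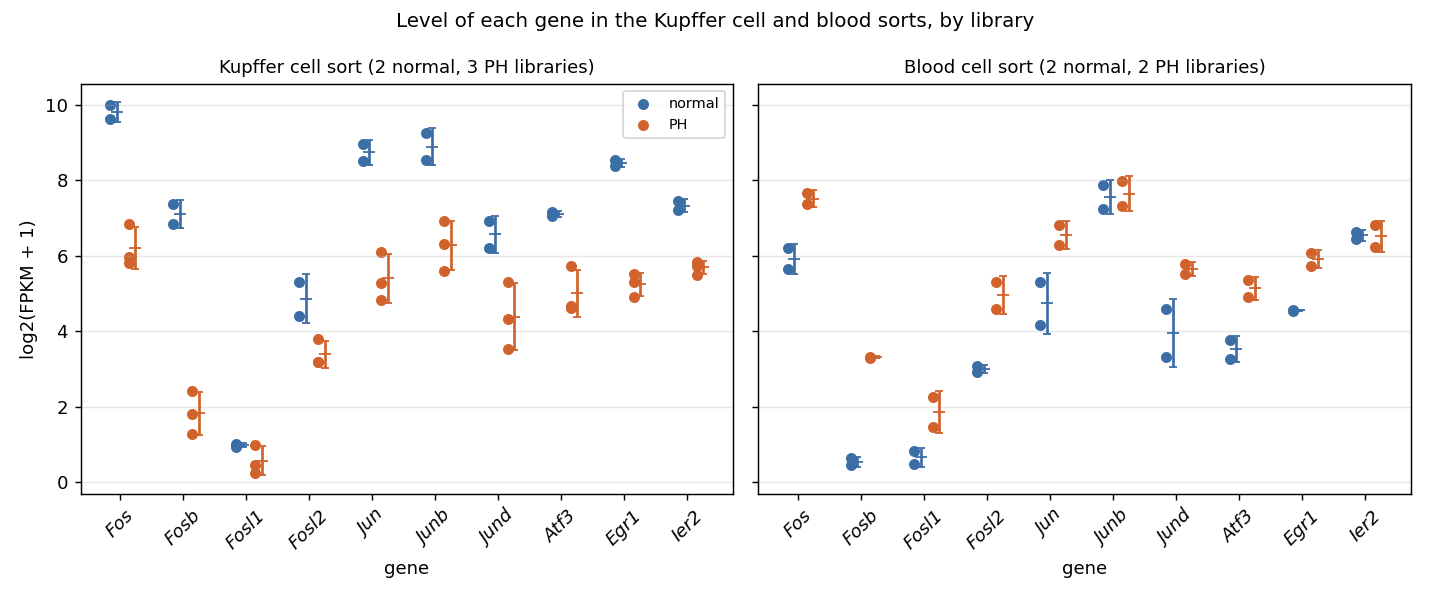
Level of each of the 10 genes, as log2(FPKM + 1), in the libraries of the KC sort (left) and the blood sort (right), normal and PH; points are libraries, and the bar beside them is the mean with the SD. In KC the normal points lie above the PH points for 9 genes, and in blood the PH points lie above the normal points for 8.

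Markers of other cell types moved with this result. The sinusoidal endothelial list (7 genes, among them Stab2 and Lyve1) summed to between 3296 and 4533 FPKM in the normal KC libraries and to 306 to 535 after PH, and 7 of 7 of its genes fell. The vascular endothelial list summed to between 1515 and 1904 FPKM against 302 to 558, and 5 of 7 fell. The Kupffer list (7 genes, among them Clec4f and Vsig4) summed to between 15761 and 17452 FPKM against 25242 to 26351, and 2 of 7 rose. The part of endothelial RNA in the fall was not tested.

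Most other genes of the wider immediate early class also fell in KC. Of 40 other immediate early and rapidly induced genes, 38 were tested, 31 fell and 0 rose (33 at an unadjusted p under 0.05 in either direction), with a median change of -1.98. Ppp1r15a, a phosphatase subunit of the stress response, had 247 ± 22.3 FPKM in normal KC (SD, n = 2) and 22.9 ± 4.35 after PH (n = 3), a change of -3.39 (SE 0.18, limma adjusted p 0.0012). Dusp1, a phosphatase that switches off MAP kinases, had 904 ± 115 FPKM against 103 ± 20.4 (-3.14, SE 0.19, limma adjusted p 0.00135). Myc, at 31.9 against 37.8 FPKM, and Klf10, at 35.4 against 33.9, did not pass.

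Of 17 other bZIP factors tested in KC, 2 rose and 5 fell, with a median change of -0.61. Of all genes, 16.7% rose and 20.1% fell in KC. Maf, a macrophage identity factor, fell from 270 ± 23.2 to 89.3 ± 8.09 FPKM (-1.58, SE 0.13, limma adjusted p 0.00155), and Batf, a partner of Jun proteins, rose from 23.0 ± 0.931 to 40.1 ± 3.21 FPKM (0.77, SE 0.12, limma adjusted p 0.00769). Of 18 kinases and factors upstream of Fos and Jun, 1 rose and 2 fell (median -0.17). Elk3, a partner of serum response factor, fell from 79.2 ± 7.31 to 10.1 ± 3.09 FPKM (-2.89, SE 0.24, limma adjusted p 0.00161), and Map2k2, the MAP kinase kinase MEK2, rose from 32.5 ± 1.15 to 50.4 ± 1.81 FPKM (0.62, SE 0.11, limma adjusted p 0.00999). The median of the upstream list stood near that of all genes, unlike that of the AP-1 and immediate early genes.

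Genes known as AP-1 targets were called in KC at rates near those of all genes, of which 16.7% rose and 20.1% fell. Of 14 tested, 3 rose and 2 fell, with a median change of 0.39. Lgals3, the macrophage lectin galectin-3, rose from 226 ± 16.4 to 939 ± 22 FPKM (2.05, SE 0.10, limma adjusted p 0.0012), and Timp1, an inhibitor of matrix proteases, from 0.473 ± 0.105 to 5.39 ± 2.35 FPKM (2.05, SE 0.34, limma adjusted p 0.0086). The inflammatory cytokine gene Il6 fell from 36.8 to 4.13 FPKM (-3.13, limma adjusted p 0.0124).

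Heat shock genes, a further stress class, were split in KC, with 6 of 12 rising, where 16.7% of all genes rose, 4 falling and a median of -0.04. Hsp90ab1, a cytosolic chaperone, rose from 458 ± 25.2 to 1247 ± 80.8 FPKM (1.44, SE 0.11, limma adjusted p 0.00142) and Hspe1, a mitochondrial co-chaperone, from 23.2 ± 0.181 to 117 ± 27.4 FPKM (2.26, SE 0.22, limma adjusted p 0.00212). The inducible Hspa1a fell by 4.63 and Hspa1b by 4.75 on the log2 scale; they are near-identical copies whose reads cannot be separated with certainty. The part of handling or stress before lysis in the KC result was not tested.

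**Figure D3:**
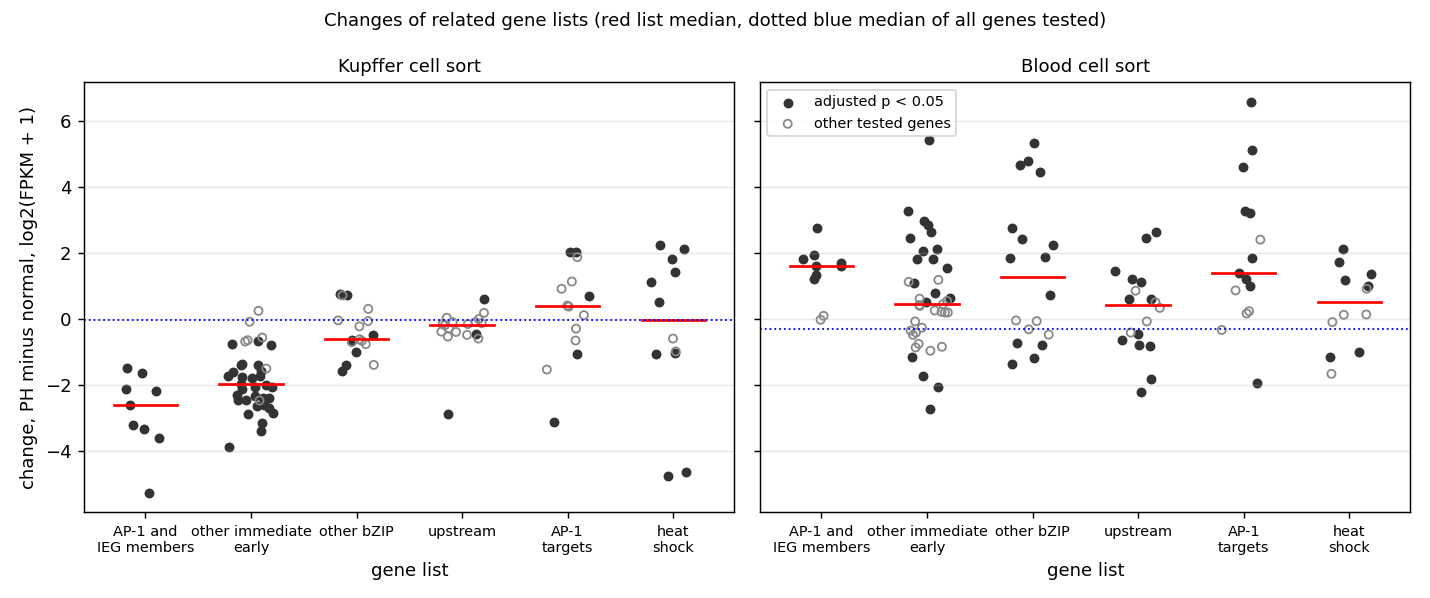
Change after PH of each tested gene, on log2(FPKM + 1), for the 10 genes and 5 related lists in KC (left) and blood (right); filled points have a limma adjusted p under 0.05, red bars are list medians and dotted lines the median of all genes tested. In KC the 10 genes (median -2.61) and the other immediate early genes (-1.98) lie below the line, and the other lists scatter around it.

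In the blood cell sort 8 of 10 genes rose after PH, where 24.3% of the 12819 genes tested rose and 39.7% fell. For these 8 both PH libraries lay above both normal libraries, as they did for 33.2% of all genes. Fosb and Fosl1 met the filter on low values only through their PH libraries, so their calls are not independent of it. Without that filter 6 genes were called, and Fosl1 and Jund were not among them. The median change was 1.60 over the 10 genes and -0.31 over all genes. The 10 transcripts took between 0.0690% and 0.104% of the FPKM of the chosen rows in the normal libraries and between 0.127% and 0.180% after PH.

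The Fos family members all rose in blood. Fosb had 0.555 and 0.369 FPKM in normal blood and 8.77 and 9.06 after PH (2.76, SE 0.19, limma adjusted p 0.000963). Fos had 48.7 and 72.7 FPKM against 203 and 163 (1.60, SE 0.25, limma adjusted p 0.00565). Fosl2 had 6.64 and 7.44 FPKM against 38.7 and 23.2 (1.95, SE 0.28, limma adjusted p 0.00434). Fosl1 rose at a low level, from 0.787 and 0.406 FPKM to 3.82 and 1.78 (1.21, SE 0.33, limma adjusted p 0.0278). PH library 1 was the higher of its pair for Fos, Fosl1 and Fosl2, and library 2 for Fosb.

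The Jun family did not move together in blood. Jun rose from 17.0 and 38.7 to 112 and 76.8 FPKM (1.81, SE 0.43, limma adjusted p 0.0189) and Jund from 8.98 and 23.1 to 54.1 and 44.5 FPKM (1.69, SE 0.44, limma adjusted p 0.0252). Junb had 149 and 232 FPKM in normal blood and 251 and 158 after PH, so that its groups overlapped (0.10, SE 0.33, limma adjusted p 0.813). Normal library 1 had the lower value of its pair for all 3. Atf3 rose from 8.69 and 12.6 to 39.7 and 29.3 FPKM (1.61, SE 0.26, limma adjusted p 0.00572) and Egr1 from 22.5 and 22.7 to 66.7 and 52.5 FPKM (1.35, SE 0.17, limma adjusted p 0.00314). Ier2 overlapped between the groups, with 85.6 and 98.6 FPKM against 111 and 74.1 (-0.02, SE 0.24, limma adjusted p 0.957).

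The blood count depended on normal library 1. Without normal library 1, only Fosb remained past the threshold, and the other 7 had adjusted p between 0.0523 and 0.11. In a single fit of all 20 groups, 3 genes passed, Fosb, Fosl2 and Jund. Fosb, called in both settings, met the filter of the blood fits only through its PH libraries. The cell content of the sort also moved. The lymphoid and other blood cell list (8 genes, among them Cd3e and S100a8) summed to between 5552 and 5881 FPKM in normal blood and between 1015 and 2225 after PH, and 7 of 8 of its genes fell. The Kupffer list summed to between 737 and 1055 FPKM against 8702 to 15348, the sinusoidal endothelial list to between 714 and 816 against 2502 to 5590, and the vascular endothelial list to between 325 and 339 against 1086 to 2176, and all 7 genes of each of these 3 lists rose. Their part in the rise of the AP-1 genes was not tested. Fos stood at 203 and 163 FPKM in the PH blood libraries, at 54.9 to 114 in PH KC, at 123 to 951 in PH LSEC and at 326 to 1322 in PH EC.

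Of 39 other immediate early genes tested in blood, 15 rose and 4 fell, with a median of 0.45. Of all genes, 24.3% rose and 39.7% fell in blood. Rhob, a small GTPase, rose from 6.28 ± 2.78 to 300 ± 17.9 FPKM (SD, n = 2 and 2; change 5.42, SE 0.29, limma adjusted p 0.000801), and Btg2, an antiproliferative gene, fell from 256 ± 2.46 to 60.2 ± 3.04 FPKM (-2.07, SE 0.14, limma adjusted p 0.000961). Of 18 other bZIP factors 10 rose and 4 fell (median 1.29). They included Jdp2, a repressor that pairs with Jun, from 3.12 ± 0.336 to 104 ± 7.71 FPKM (4.67, SE 0.16, limma adjusted p 0.000766), and Maf, from 7.68 ± 2.39 to 188 ± 7.43 FPKM (4.47, SE 0.23, limma adjusted p 0.000766). Maf therefore moved in opposite directions in the blood and KC sorts.

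Of 18 upstream kinases and factors in blood, 7 rose and 6 fell (median 0.42), where 24.3% of all genes rose and 39.7% fell. Rps6ka3, the kinase RSK2, rose from 3.90 ± 0.427 to 26.2 ± 0.372 FPKM (2.47, SE 0.17, limma adjusted p 0.000932) and Srf, serum response factor, from 2.59 ± 0.418 to 21.3 ± 1.19 FPKM (2.64, SE 0.19, limma adjusted p 0.000966). Of 15 AP-1 targets tested, 9 rose and 1 fell (median 1.40). Hmox1, the haem-degrading enzyme of macrophages, rose from 26.7 ± 3.30 to 2681 ± 560 FPKM (6.59, SE 0.22, limma adjusted p 0.000766) and Ccl2, a monocyte chemokine, from 3.37 ± 0.200 to 152 ± 13.4 FPKM (5.13, SE 0.15, limma adjusted p 0.000766). Of 12 heat shock genes 5 rose and 2 fell (median 0.53), among them Bag3, up from 6.74 ± 0.769 to 32.9 ± 3.34 FPKM (2.13, SE 0.18, limma adjusted p 0.00122), and Dnajb1, down from 79.7 ± 2.65 to 35.4 ± 4.80 FPKM (-1.16, SE 0.16, limma adjusted p 0.00382).

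In hepatocytes 2 of 9 tested genes fell after PH, where 4.41% of the 10029 genes tested fell. Jund had 52.8, 41.3, 55.3 and 59.9 FPKM in normal HC and 15.8, 14, 21.5 and 22.6 after PH (-1.47, SE 0.22, limma adjusted p 0.00469). The lowest normal library was well above the highest PH library. Ier2 had 95.8, 109, 102 and 89.8 FPKM against 69.6, 50.9, 32.6 and 29.4 (-1.18, SE 0.27, limma adjusted p 0.0338), also without overlap. Its call was lost without any single normal library and without PH library 2, 3 or 4, with adjusted p between 0.0585 and 0.0965, while Jund passed in all 8 of these fits. Junb did not overlap either, at 76.5, 98, 125 and 70.4 FPKM against 63.0, 56.6, 42.4 and 34.2, but did not pass (-0.90, limma adjusted p 0.0766).

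Fos did not pass in hepatocytes (-0.57, SE 0.79, limma adjusted p 0.738), and its PH libraries were scattered. They had 120, 44.3, 7.17 and 11.8 FPKM, a 16.7-fold range that took in all 4 normal libraries. PH library 1 was also highest for Fosb, with 17.6 FPKM against 0.14 to 0.92 in the others, for Atf3, with 71.6 against 1.49 to 5.66, and for Jun, with 99.6 against 26.2 to 45.8. Without that library 3 of the genes passed, Jund, Ier2 and Egr1. Egr1 in HC had 62.8, 95.5, 103 and 70.7 FPKM in normal liver and 64.5, 36.6, 8.23 and 14.5 after PH (-1.76, SE 0.54, limma adjusted p 0.0897), and passed without PH library 1 (limma adjusted p 0.0228) and in the single fit of all 20 groups (limma adjusted p 0.0424). Fosl2 lay higher after PH without overlap, at 1.85 to 3.21 FPKM against 0.66 to 1.56, but did not pass (0.69, limma adjusted p 0.0889). Fosl1 was listed at 0 in 4 of the 8 HC libraries and was not tested.

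In the non-progenitor ducts 1 of 10 genes fell, where 5.51% of 13024 genes fell. Jund had 161 and 178 FPKM in normal NPD and 92.6 and 103 after PH (-0.79, SE 0.17, limma adjusted p 0.0432), with no overlap. Fos, at 2307 and 1520 FPKM against 1118 and 1102, had an adjusted p of 0.128, and the rarer Fosl1 lay higher after PH, at 14.7 and 13.6 FPKM against 6.50 and 1.98 (1.68, limma adjusted p 0.0672). The call for Jund was lost in 6 of 11 alternatives, among them the fits without PH library 1 (limma adjusted p 0.42) and without PH library 2 (0.334). Leaving out a library leaves 1 in its group, so calls in such fits rest on the spread of the other group. The median change of the 10 genes, -0.53 with all libraries, was -0.16 without normal library 1 and -0.78 without normal library 2. It was -0.73 without PH library 1 and -0.31 without PH library 2. Of the genes known as AP-1 targets 8 of 13 tested rose here and 0 fell, where 9.65% of all genes rose, with a median of 2.21 against 0.09 for all genes. Without either PH library 0 of the 13024 genes tested in NPD passed, so these calls were lost as well. They included Cd44, an adhesion receptor, from 5.74 to 75.6 FPKM (3.51, SE 0.22, limma adjusted p 0.00637), which was named after its values were seen. The Kupffer list summed to between 148 and 305 FPKM in normal NPD and between 20.7 and 28.8 after PH, and the vascular endothelial list to between 171 and 175 FPKM against 51.6 to 59.9. Their part was not tested.

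In both biliary sorts these genes were high before and after PH, and 0 of 10 passed in either. The test called 0.0681% of 13225 genes in cBEC and 1.81% of 12851 in BEC, and at an unadjusted p under 0.05 it gave 0 of the 10 in cBEC and 1 in BEC. Jun had the smallest p in cBEC, at 1160, 1001, 1024 and 900 FPKM in normal liver and 2019 and 1165 after PH (0.59, 95% interval of limma -0.01 to 1.2, adjusted p 0.493). Fosl2 had it in BEC, at 24.5, 21.5, 17.6 and 22.5 FPKM against 55 and 30.7 (0.91, SE 0.25, limma adjusted p 0.113). In both cases the PH libraries lay above the normal ones by a margin smaller than their own spread. PH library 1 exceeded library 2 for all 10 genes in cBEC and in BEC, by between 1.65-fold (Atf3) and 4.50-fold (Fosb) in cBEC. In cBEC, PH library 1 is the library tagged normal. The median change of the 10 genes in cBEC was 0.19, -0.24 without PH library 1 and 0.83 without PH library 2. In BEC it was 0.16, -0.21 and 0.62. Of the marker lists, 6 of 7 Kupffer, 5 of 7 sinusoidal and 4 of 7 vascular endothelial genes fell in BEC (median changes -3.97, -3.62 and -3.04). None passed in cBEC (median changes -2.45, -2.04 and -1.89). The part of these lists was not tested.

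Neither endothelial population passed for any of the 10 genes, where 0.0249% of 12064 genes were called in EC and 8.46% of 11501 in LSEC. At an unadjusted p under 0.05 the count was also 0 in both. Fos in EC had 1088 and 526 FPKM in normal liver and 1322, 326 and 700 after PH, and in LSEC 554, 423 and 349 against 951, 123, 464, 242 and 591. The PH libraries enclosed the normal range in both sorts. Fosl2 had the smallest p in EC, at 11.2 and 14.4 FPKM against 29.6, 26.9 and 11.5 (0.68, SE 0.40, limma adjusted p 0.592), and Egr1 in LSEC, at 452, 307 and 127 FPKM against 435, 56.9, 100, 48.9 and 185 (-1.14, SE 0.71, limma adjusted p 0.358). PH library 1 was highest of its group for Fos in both EC and LSEC.

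In stellate cells and Thy1 cells the 10 genes leaned in opposite directions without passing. In HSC 0 of 10 passed, where 0.00853% of 11729 genes did, and 5 had an unadjusted p under 0.05. For 5 genes all PH libraries lay above both normal ones, as for 14.7% of all genes, and the median change was 1.29 against 0.03. Fosl2 had 4.71 and 14.1 FPKM in normal HSC and 29.2, 38.8 and 37.2 after PH (1.95, SE 0.46, limma adjusted p 0.398). Egr1 had 51.1 and 16.6 FPKM against 75.5, 119 and 393, and Ier2 45.2 and 18.7 against 83.4, 87.7 and 210. The single fit of all 20 groups shares 1 estimate of the spread. It called these 3 genes higher (limma adjusted p 0.00393, 0.0247 and 0.00125) and 11.9% of all genes in either direction. The Kupffer list in HSC summed to between 76.0 and 893 FPKM in normal liver and 0.515 and 44.3 after PH (median change -3.20). The sinusoidal endothelial list summed to between 244 and 1066 FPKM against 78.0 to 128 (median change -3.31). The vascular endothelial list overlapped in sum, at 476 to 782 against 540 to 892, but 6 of its 7 genes had an unadjusted p under 0.05, with a median change of -3.12. The part of these lists was not tested.

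In Thy1 cells 0 of 10 passed, where 0.00747% of 13389 genes did, and 8 had an unadjusted p under 0.05. For 8 genes both PH libraries lay below both normal ones, as for 28.7% of all genes, and the median change was -1.21 against -0.06. Atf3 had the smallest p, at 458 and 350 FPKM in normal Thy1 cells and 48.8 and 67.1 after PH (-2.79, SE 0.34, limma adjusted p 0.129). Egr1 had 1603 and 1296 FPKM against 349 and 292, and Fos 1712 and 1510 against 677 and 800. Fosl1 lay the other way, at 12.5 and 4.63 FPKM against 14.3 and 13.0. The Thy1 cell and portal fibroblast list summed to between 2684 and 2834 FPKM in normal liver and 867 and 1888 after PH, and the duct list to between 860 and 5137 against 858 to 1342. The Kupffer list summed to between 76.3 and 147 FPKM against 13.0 to 16.5, with 7 of 7 genes at an unadjusted p under 0.05 and a median change of -2.52. The vascular endothelial list lay higher after PH, at 1161 to 1293 against 1560 to 3034, and the sinusoidal list overlapped, at 875 to 1186 against 716 to 1862. The part of these lists was not tested.

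**Figure D4:**
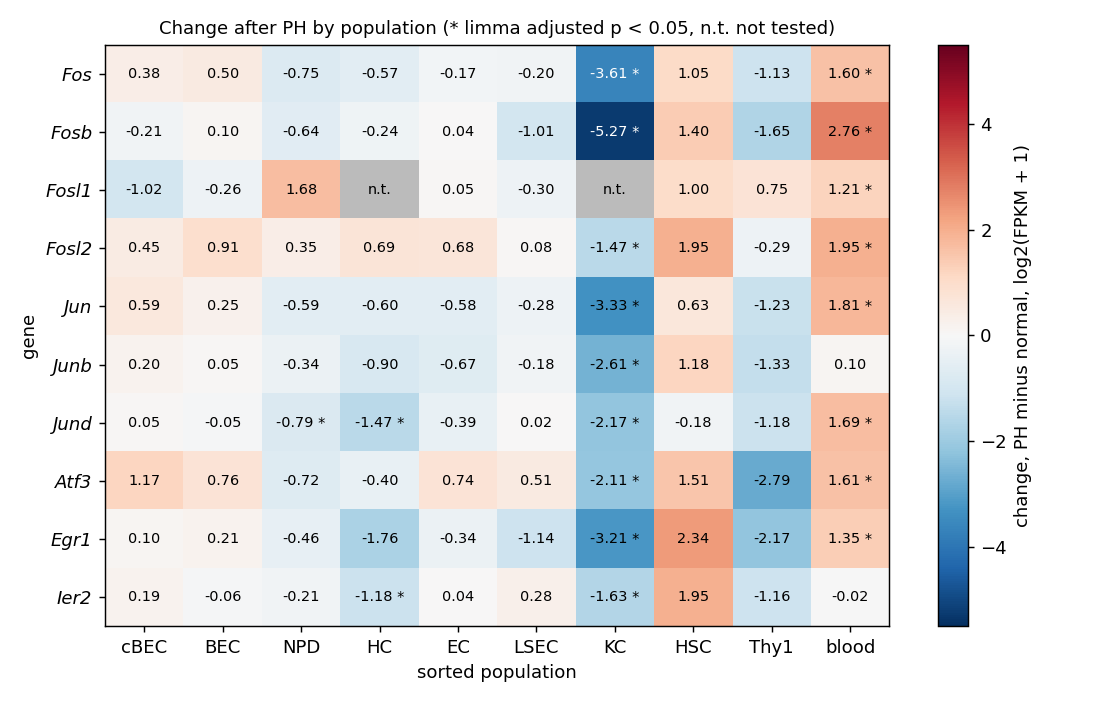
Change after PH, on log2(FPKM + 1), of each gene (rows) in each population (columns); blue is lower and red higher after PH, a star marks a limma adjusted p under 0.05, and grey cells were not tested. Stars fill the KC column (9, from -1.47 to -5.27) and most of the blood column (8, from 1.21 to 2.76), with 2 in HC and 1 in NPD.

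The responses themselves differed between populations for 9 of the 10 genes in limma's moderated F test of the interaction terms over all 20 groups, a test that called 47.8% of the 16527 genes. F was largest for Ier2 (6.22, limma adjusted p 0.000124) and Egr1 (5.41, limma adjusted p 0.000436), and Fosl1 did not pass (F 1.19, limma adjusted p 0.415). KC and LSEC, neighbours in the sinusoid, differed in their response for 6 of 10 genes, where 8.69% of all genes did. The differences, KC minus LSEC, were -4.26 for Fosb (SE 1.23, limma adjusted p 0.0197), -3.41 for Fos (SE 0.97, limma adjusted p 0.0173) and -3.05 for Jun (SE 0.87, limma adjusted p 0.0184). They were -2.43 for Junb (SE 0.65, limma adjusted p 0.0111), -2.19 for Jund (SE 0.67, limma adjusted p 0.0314) and -1.91 for Ier2 (SE 0.53, limma adjusted p 0.0152). For all 6 the change was more negative in KC. The count was 0 without normal KC library 2, 1 without PH KC library 2 and 2 without normal LSEC library 3.

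Between EC and LSEC the response differed for 0 of 10 genes, where 0.345% of all genes did, and between cBEC and NPD for 0 of 10, where 3.79% did. These intervals were wide. For Fos the difference, EC minus LSEC, was 0.02 with a 95% interval from -1.93 to 1.98, and cBEC minus NPD it was 1.13 with an interval from -1.08 to 3.34. Both intervals take in changes as large as several of those that passed elsewhere.

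The make-up of each family, as shares of its summed FPKM, varied with population. Fos was the largest part of the Fos family in all 20 groups, from 70.3% on average in PH HSC to 92.4% in normal HC. Fosb took 25.8% in normal cBEC and 22.8% in normal Thy1 cells but 0.717% in normal blood. In KC its share was 16.4% and 9.94% in the normal libraries and 3.50%, 2.19% and 3.27% after PH, while the share of Fosl2 was 3.91% and 1.77% against 11.1%, 12.6% and 9.88%. Neither pair of groups overlapped. In HC the mean share of Fosl2 was 2.64% in normal liver and 11.3% after PH, but PH library 1, with 1.77%, lay below the normal range of 1.98% to 3.58%. Within the Jun family, Junb made up 85.1% and 79.0% in normal blood and 60.2% and 56.5% after PH, and Jun took 11.5% against 27.2% on average. Jun and Junb shared the family about equally in the endothelial sorts, and Jund was largest in normal HC at 25.6%. These shares are descriptions without a test.

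**Figure D5:**
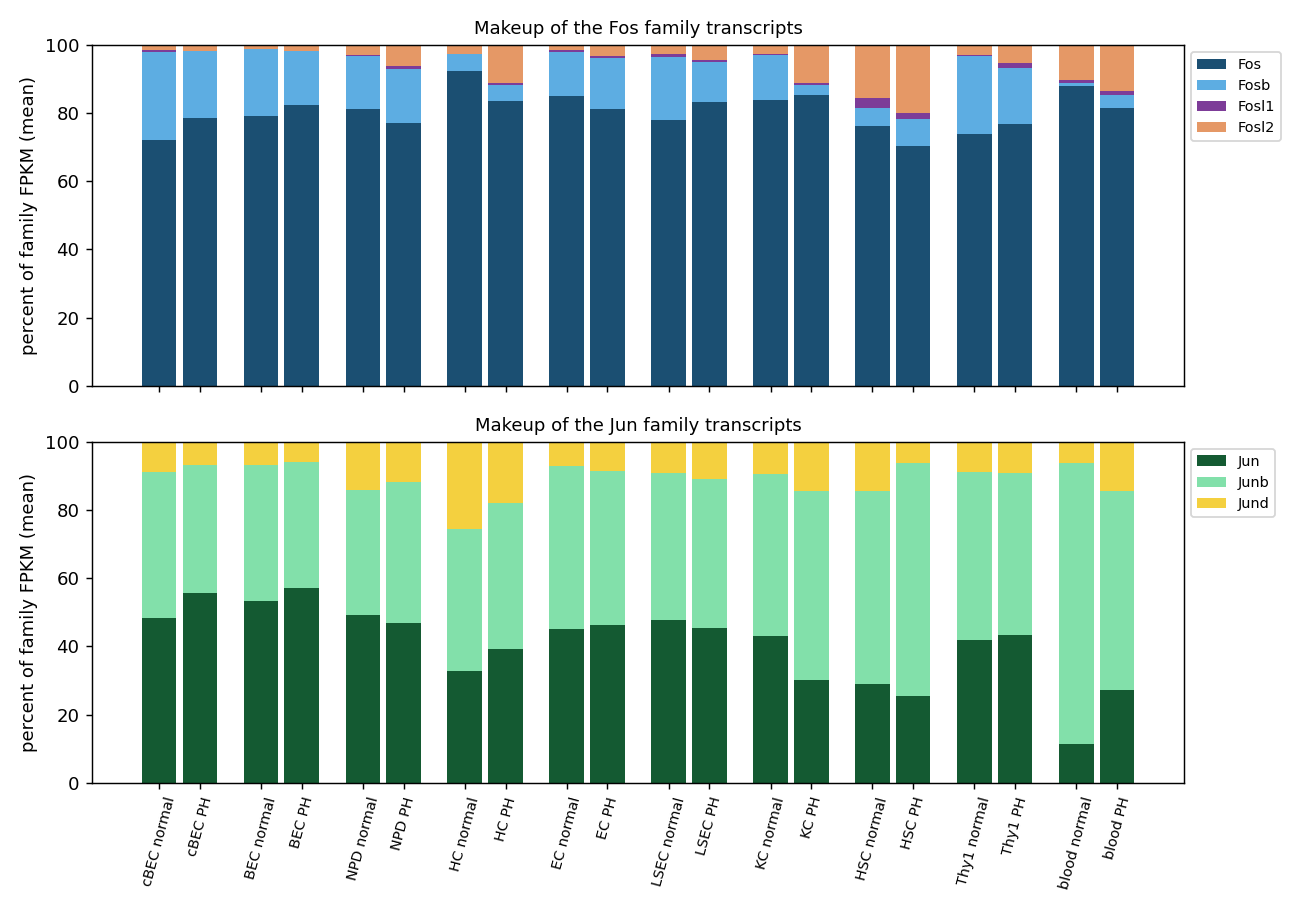
Mean share, in percent of family FPKM, of each Fos family (top) and Jun family (bottom) transcript in the 20 groups (horizontal axis). Fos is the largest Fos family part everywhere, Junb is widest in normal blood (82.1%), and the Fosl2 band is wider in PH KC (11.2%) than in normal KC (2.84%).

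Within groups, the library highest for Fos was often the highest for other members. It was so for Junb in 18 of 20 groups, for Atf3, Egr1 and Ier2 in 16 each, for Jun in 15, for Jund in 14, for Fosb and Fosl2 in 12 and for Fosl1 in 8, where equal odds for each library would give 8.03. Fosl1 was thus at that number, and in normal BEC 0 of the 9 other members were highest in the library highest for Fos. These counts have no test. In PH LSEC, for example, library 1 had 951 FPKM of Fos, 582 of Jun and 493 of Junb, and library 2 had 123, 91.4 and 116. In normal HC, libraries 2 and 3 had 73.4 and 67.0 FPKM of Fos and 136 and 143 of Jun, and libraries 1 and 4 had 21.3 and 23.6 of Fos and 29.7 and 30.4 of Jun. The fold between the highest and lowest library for Fos was 7.74 in PH LSEC, 4.05 in PH EC and 3.44 in normal HC, against 1.01 in PH NPD and 1.13 in normal Thy1 cells.

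Over the 20 group means of log2(FPKM + 1), Fos and Fosb had the highest Pearson correlation of any pair of the 10, 0.98, followed by Jun with Egr1 at 0.977. These are descriptions over groups that share libraries between genes. The 2 genes most like each member were sought among 11661 genes that reached 10 FPKM in the mean of some group. They were other members for Fos (Fosb and Jun) and Fosb (Fos and Jun). For Jun they were Egr1 and Fbrsl1 (0.963), and for Egr1 they were Jun and Fbrsl1 (0.955). Junb was closest to Zfp36, which encodes an mRNA-destabilising protein and is itself immediate early (0.953). Among the genes closest to Ier2 was Junb (0.938), and Jund was closest to Jun (0.949) and Zfp395 (0.94). Atf3 was closest to Sestd1 (0.965) and Slc12a8 (0.951) and Fosl2 to Stk35 (0.944) and Phlpp2 (0.924). Fosl1 had the weakest matches, Gfpt2 (0.888) and Tram2 (0.87), and among the other members its correlations with Ier2 (0.33) and Atf3 (0.37) were the lowest of all pairs.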

How the data were processed

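The authors deposited a table of FPKM with a column for each of 55 libraries and 36141 rows, a RefSeq transcript in each; 0 sample columns were left without a sample. The submitters' processing notes name CASAVA 1.8.2, Bowtie 1.0.0 and mm9, without their roles; the counting step is not given in the sources used here. FPKM do not give the depth. Groups follow the sample titles.

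A symbol with several rows was represented by that of highest mean. A gene was tested where the number of libraries with 1 FPKM or more was at least that of the smaller group. Tests were made on log2(FPKM + 1) with limma 3.58.1 in R 4.3.3 (moderated variances with trend, robust), per population and, for differences of responses, in a single fit of all 20 groups. Adjusted p under 0.05 was the threshold. The procedure was tested on simulated data. Figures used Python 3.11.15 and matplotlib 3.10.9.

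The 10 genes, the lists and the tests were chosen with earlier results of these data known. All 10 genes are described. In a population where at least 3 of them passed, the 2 genes of each related list with the smallest p were named; Myc, Klf10, Il6, Hspa1a, Hspa1b and Cd44 were named after their values were seen. A few genes picked by these rules are not reported here. The alternatives were a pseudocount of 0.1, no filter, upper-quartile scaling, quantile normalization, the sum over a symbol's rows, a single fit, a block on the replicate number and leaving out each library.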

Additional observations from a re-analysis of the deposited data

Results flagged for a closer look

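Among 50 values of the 10 genes in groups of 4 or more libraries that were checked for a stray library, 3 had a highest library that stood apart, and chance gives about 5 percent. Jund had 391 FPKM in normal cBEC library 1 and 124 to 149 in the other 3. Fosl1 had 0.08 FPKM in normal HC library 3 and was listed at 0 in the others. With the others at 0 any value above 0 is flagged, so this case cannot be set against the chance rate. Ier2 had 206 FPKM in PH LSEC library 1 and 76.4 to 96.4 in the other 4.

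The response to PH differed between the 10 populations, by limma's moderated F test, for 9 genes, where 47.8% of all genes differed. F was 3.49 for Fos, 4.55 for Fosb, 4.54 for Fosl2, 3.83 for Jun, 4.07 for Junb and 4.0 for Jund. It was 2.52 for Atf3, with the adjusted p nearest the threshold (0.0468), 5.41 for Egr1 and 6.22 for Ier2. The change in KC minus that in LSEC was -3.41 for Fos, -4.26 for Fosb, -3.05 for Jun, -2.43 for Junb, -2.19 for Jund and -1.91 for Ier2 on the log2 scale. Each was past the threshold, as were 8.69% of all genes, and these calls depended on single libraries, as given above.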

How the results depend on the processing

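Of the counts of genes past the threshold, 276 recomputed values stayed within 1.5 times the reported count, 6 were larger and 19 smaller. The 276 include counts of 0, which cannot fall, in sorts with few calls of any kind, such as EC (0.0249% of all genes) and Thy1 cells (0.00747%). They also include 10 of 10 in the F tests of levels, which called 93.0% and 88.3% of all genes. Such counts say little about how stable the others are. Of the values of single genes, 263 kept their side of the threshold, 3 gained a call and 47 lost it, and none changed sign. Without the filter on low values NPD had 0 genes (1 reported) and HC 1 (2 reported). With upper-quartile scaling NPD had 2, Fos lower and Fosl1 higher, without Jund (limma adjusted p 0.0546), and HC had 1. In the single fit of all 20 groups NPD had 0, HSC 3 (0 reported) and blood 3 (8 reported), where 11.7%, 11.9% and 40.2% of all genes were called. Leaving out each library in turn gave 0 to 7 in NPD, 1 to 3 in HC, 1 to 7 in blood, 6 to 9 in KC (9 reported) and 0 to 6 for the difference between KC and LSEC (6 reported), and with an arm of 1 library its spread is assumed to be that of the other group; the cause of these shifts was not tested. The labels do not say that replicate numbers pair libraries, and same-numbered libraries correlated between -0.672 and 0.574 in their deviations from the group means; in HC and LSEC, the sorts with 3 or more numbers in both groups, not every pair correlated positively. With the replicate number as a block BEC had 1 (0 reported), HC 1 and Thy1 2 (0 reported), and counts elsewhere stayed within 1.5 times, but in NPD the fall of Jund was lost (limma adjusted p 0.0536) and the 1 gene called was Fosl1, higher. Under the block all-gene calls went from 9 to 61 in cBEC, 232 to 1027 in BEC, 621 to 302 in HC, 973 to 3 in LSEC, 4350 to 6549 in KC and 1 to 485 in Thy1 cells. Without the filter they were 53 in BEC and 648 in NPD (1974 reported). In the single fit they were 515 in cBEC, 349 in BEC, 1194 in HC, 205 in EC (3 reported), 1960 in HSC (1 reported) and 1886 in Thy1 cells. A pseudocount of 0.1 gave 481 in BEC, and quantile normalization gave 122 in BEC and 3 in HSC. Quantile normalization moved the median change of all genes by over 0.1 in cBEC (from -0.11 to 0.05), BEC (-0.12 to 0.02), KC (-0.04 to 0.09) and blood (-0.31 to -0.15), and HC had 1 gene higher and 1 lower under it. The unknown depth sets no stated limit on low values such as those of Fosl1.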

Other observations

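Library numbers carried a pattern that belongs to no comparison. The library numbered 1 was the highest of its group for Fos in 7 of 10 PH groups, where 3.95 is the number that equal odds for each library would give, and in 6 of 10 normal groups, where equal odds would give 4.08. The labels do not say that a number marks a shared animal, day or batch.

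Heat shock transcripts, given above for KC and blood, were higher in sum after PH in every sort but HC. In those sorts the normal and PH libraries did not overlap in sum, and the sums were not tested. In KC the sums were 804 to 955 FPKM in normal liver and 1653 to 1811 after PH, although 4 of 12 genes fell there. In LSEC they were 612 to 779 against 926 to 2046, and in HSC 643 to 669 against 759 to 916. The 12 genes summed to between 868 and 1069 FPKM in normal NPD and between 1879 and 2203 after PH, to between 779 and 863 against 1520 to 2134 in Thy1 cells, and to between 576 and 634 against 540 to 635 in HC. In NPD 5 of 12 rose, where 9.65% of all genes rose, and the NPD calls depended on single PH libraries, as given above. In Thy1 cells 0 of 12 passed (7 at an unadjusted limma p under 0.05), and in HC 0 of 11 tested passed (1 at an unadjusted limma p under 0.05).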
